A study of Homo sapiens with 8 samples.

Results

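YAP-TEAD regulators and targets were followed in the human cell line Ea.hy926, a hybrid of HUVEC (endothelial cells of the umbilical vein) and the lung carcinoma line A549. The set holds 10 genes of the 38010 gene IDs in the count table: the coactivators YAP1 and WWTR1 (TAZ), the DNA-binding factor TEAD1, the kinase gene LATS2, the upstream regulators AJUBA and AMOTL2, and CCN2, CCN1, ANKRD1 and AXL, which are widely used as targets of the pathway. They were chosen by name, CCN1 and CCN2 being the current symbols of CYR61 and CTGF, and each matched 1 ID. Rho0 cells, a derivative of the line that is deficient in oxidative phosphorylation, were compared with the parental line (Eahy), both grown to confluence before collection. Bulk RNA-seq of poly-A-enriched RNA was made from 4 biological replicates of each line. The study as a whole asks how respiration bears on autophagy and stress resistance in quiescent cells. Cells that have lost their mitochondrial DNA are commonly called Rho0. The sources used here do not give how this Rho0 line was made or whether it is a single clone.

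YAP1 and WWTR1 carry no DNA-binding domain of their own and act on genes by binding TEAD factors. The Hippo kinases, STK3 and STK4 followed by LATS1 and LATS2, phosphorylate both coactivators, which are then held in the cytoplasm or degraded. High cell density and low mechanical tension raise this phosphorylation, so that confluence is a classic setting of low YAP activity. Several targets, among them LATS2 and AMOTL2, encode inhibitors of the pathway. These steps act on protein and location, which RNA levels do not measure.

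TEAD factors recognise a short core sequence, GGAATG on one strand and CATTCC on the other, and the promoters that hold it are shown because the targets differed in how they changed. RefSeq promoters (GRCh38.p14) were on hand for 8 of the 10 genes, with 12 annotated starts, and TEAD1 and CCN1 are named only. In the 250 bases before the start, searched on both strands, 6 of the 12 promoters held the core, belonging to 6 genes, against 11.9% of all 35116 promoters. The 10 genes were chosen by name as parts of this pathway, some of them as targets, so the higher share may follow from the choice. CCN2, which encodes a secreted matricellular protein, held 3 copies, and 0.0826% of all promoters held at least that many. ANKRD1, a nuclear and sarcomeric ankyrin-repeat protein gene, held 2, and 0.94% of all promoters held at least that many. Capitals mark the core in the 250 bases before the start of CCN2 (chr6:131951373-131951622, minus strand) and of ANKRD1 (chr10:90921088-90921337, minus strand), written 5′ to 3′ on the strand of the gene.
CCN2: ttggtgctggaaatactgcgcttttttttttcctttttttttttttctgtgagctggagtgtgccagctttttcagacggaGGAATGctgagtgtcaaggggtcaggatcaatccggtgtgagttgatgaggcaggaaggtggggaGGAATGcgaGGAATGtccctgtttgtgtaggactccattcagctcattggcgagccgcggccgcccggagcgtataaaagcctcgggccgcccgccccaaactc
ANKRD1: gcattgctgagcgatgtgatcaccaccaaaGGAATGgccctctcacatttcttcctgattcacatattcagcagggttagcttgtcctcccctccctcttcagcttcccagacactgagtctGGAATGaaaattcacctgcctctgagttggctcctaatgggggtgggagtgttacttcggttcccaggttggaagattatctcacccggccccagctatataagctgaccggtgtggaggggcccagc

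The matches in CCN2 began 169, 104 and 95 bases before the start, and those in ANKRD1 began 220 and 128 bases before it. Single copies were found before YAP1 itself, 162 bases from the start, and before the downstream annotated start of AMOTL2, AJUBA and AXL, at 69, 59 and 212 bases. Each is shown with 20 bases on either side, for YAP1 (chr11:102110265-102110310, plus strand), AMOTL2 (chr3:134374491-134374536, minus strand), AJUBA (chr14:22976876-22976921, minus strand) and AXL (chr19:41226523-41226568, plus strand).
YAP1: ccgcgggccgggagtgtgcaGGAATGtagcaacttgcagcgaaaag
AMOTL2: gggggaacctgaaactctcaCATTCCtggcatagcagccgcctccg
AJUBA: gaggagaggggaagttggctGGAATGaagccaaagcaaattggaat
AXL: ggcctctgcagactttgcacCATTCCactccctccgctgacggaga

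The promoters of WWTR1 and LATS2 and the first starts of AMOTL2, AJUBA and AXL held no match in this window. The AP-1 core, TGACTCA or TGAGTCA (both strands), was in 0 of the 12 and in 4.2% of all promoters. A match is a stretch of letters and not a measured binding site, and windows differ in base composition, from 35.2% G and C before a WWTR1 start to 73.6% before an AMOTL2 start.

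**Figure D1:**
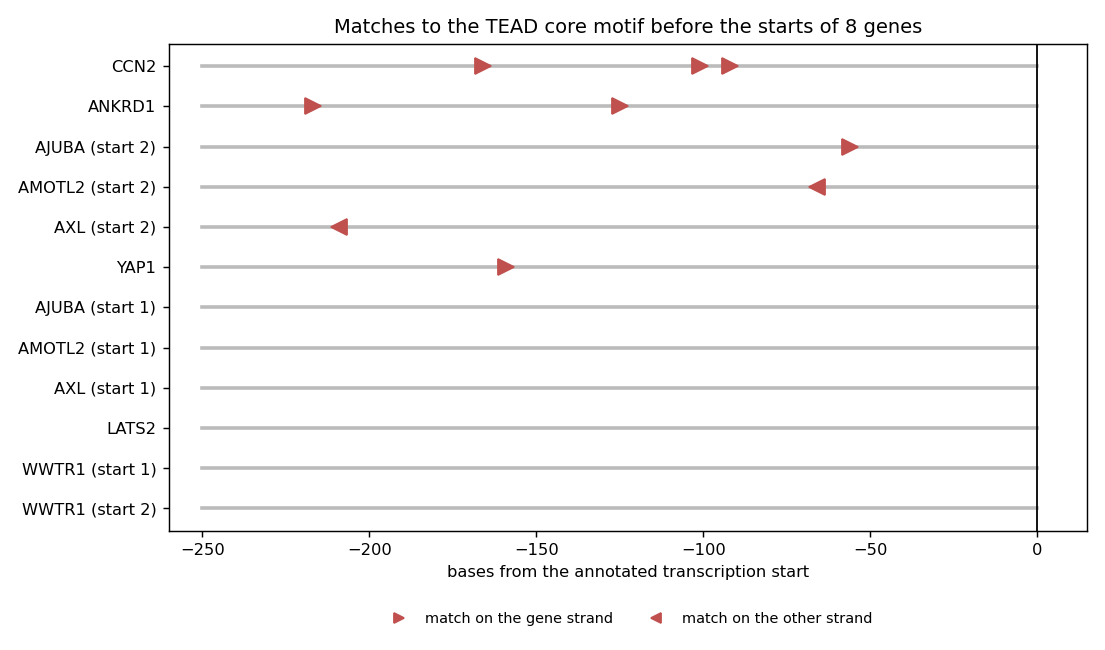
Positions of the TEAD core in the 250 bases before each annotated start of 8 genes; the x axis is the distance from the start in bases and arrowheads give the strand of the match. CCN2 carries 3 matches, ANKRD1 carries 2, and 4 further promoters carry 1 each.

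Among the 10 genes, 6 were higher and 1 was lower in Rho0 cells, and 3 did not pass the test. The largest change was that of CCN2, which was 5.84-fold higher, while its close relative CCN1 was lower. WWTR1, TEAD1 and ANKRD1 were 2.24- to 2.37-fold higher, AXL and AJUBA rose less, and YAP1, LATS2 and AMOTL2 were not called. All 10 genes passed the filter on low counts. The test was edgeR's quasi-likelihood test with Benjamini-Hochberg adjustment over the 15184 genes tested, called at an adjusted p of 0.05. These counts stand against a wide background: 29.0% of all genes tested were called higher, 25.4% lower and 54.4% in either direction, so 7 called of 10 is not far from the share among all genes. The median log2 fold change was 0.50 over the 10 genes and 0.05 over all genes tested. The ranges of the lines did not overlap for 7 of the 10 genes, the same 7 that were called, and for 50.9% of all genes.

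Libraries held 11721708 to 37203507 estimated counts in Rho0 and 23366190 to 28599386 in the parental line. Protein-coding genes of mitochondrial DNA took 0.0409 ± 0.0720% of counts in Rho0 and 18.5 ± 2.21% in the parental line (SD, n = 4 each; two-sided exact permutation p = 0.0286, as low as 70 arrangements can give), which checks the label of the lines. With libraries scaled by size alone, without TMM (edgeR's trimmed mean of M-values), the median over all genes was 0.44 in place of 0.05 on the log2 scale, a shift of 0.39. Endothelial markers were present, 11 of 12 being tested, with 4 higher and 4 lower in Rho0, where 29.0% of all genes tested were called higher and 25.4% lower. Their summed level was 6478 to 7285 counts per 1e6 of the scaled library (CPM) in Rho0 and 5978 to 6781 CPM in the parental line. Similar sums hide changes of single markers in both directions. KDR had 131 ± 13.5 CPM in Rho0 and 13.8 ± 0.794 CPM in the parental line, and EMCN had 0.398 ± 0.0475 and 7.78 ± 0.627 CPM. PECAM1 was 1.95-fold higher in Rho0 and CDH5 1.66-fold lower. CLDN5 stayed under 1 CPM in both lines, with no count in Rho0 replicate 2, and none of the 12 was at 0 in all 8 libraries. In bulk samples, a change in the share of cells that express a gene and a change in RNA per cell cannot be told apart, and p-values measure the spread between cultures of 1 Rho0 and 1 parental line. A difference between these lines that has nothing to do with respiration cannot be told apart from one that does.

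The coactivators differed in how they changed. WWTR1 (ENSG00000018408, chromosome 3, 149517235 to 149736714, GRCh38) had 619, 630, 664 and 775 CPM in Rho0 replicates 1 to 4, against 289, 283, 279 and 289.6 CPM in parental replicates 1 to 4. Every Rho0 library lay above every parental library, and the parental values were close together. The difference was 2.36-fold (log2 fold change 1.24, SE 0.08, edgeR adjusted p = 6.8e-07).

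YAP1 (ENSG00000137693, chromosome 11, 102110461 to 102233423) had 46.4, 53.8, 55.8 and 64.1 CPM in Rho0, against 54.2, 47.5, 50.01 and 50.4 CPM in the parental line. The lines overlapped, since Rho0 replicate 1 lay below every parental library and Rho0 replicate 4 above them all. The log2 fold change was 0.12 (SE 0.10, edgeR adjusted p = 0.31), with a 95% interval from -0.11 to 0.36, so that a change of the size seen in WWTR1 lies outside it. With libraries scaled by size alone YAP1 was called higher at 0.52, where the median of all genes was 0.44.

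Within a library, the ratio of the coactivators does not depend on scaling. Per kilobase of the longest coding transcript, WWTR1 exceeded YAP1 14.3-, 12.6-, 12.8- and 13.0-fold in the Rho0 libraries and 5.73-, 6.39-, 5.98- and 6.16-fold in the parental libraries. WWTR1 mRNA was thus the more abundant of the pair in all 8 libraries, and the ranges of the ratio did not overlap between the lines. Levels per length assume that the longest annotated coding transcript is the one made.

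TEAD1 (ENSG00000187079, chromosome 11, 12674591 to 12944483), the TEAD factor of the set, had 37.3, 55.5, 53.0 and 74.0 CPM in Rho0, against 26.4, 25.8, 23.7 and 22.2 CPM in the parental line. All Rho0 values were higher than all parental values, with Rho0 replicate 1 the lowest and replicate 4 the highest. The rise was 2.24-fold (log2 fold change 1.16, SE 0.17, edgeR adjusted p = 2.3e-04). Without Rho0 replicate 4 the value was 0.97 and without Rho0 replicate 1 it was 1.29, and it was called in both.

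The other TEAD genes moved in both directions. Of the 7 other genes among TEAD factors and VGLL cofactors, 3 rose, 2 fell and 2 were not tested. By comparison, 29.0% of all genes tested were called higher and 25.4% lower. TEAD4, the most abundant TEAD mRNA in both lines, averaged 78.1 ± 13.1 CPM in Rho0 and 132 ± 9.75 CPM in the parental line (SD, n = 4 each), a log2 fold change of -0.76 (SE 0.12, edgeR adjusted p = 2.9e-04). TEAD2 fell by 0.35 on the log2 scale, and this direction was lost with scaling by library size alone, where it stood at 0.04. TEAD3 rose to 11.4 ± 1.46 CPM in Rho0, against 8.12 ± 0.899 CPM in the parental line.

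As shares of all TEAD mRNA per kilobase, which scaling cannot move, TEAD1 made up 5.07%, 8.12%, 8.14% and 12.7% in the Rho0 libraries and 2.90%, 2.84%, 2.30% and 2.40% in the parental libraries. TEAD4 made up 58.7 ± 4.36% in Rho0 and 70.01 ± 1.63% in the parental line (SD, n = 4 each). The lines did not overlap in either share, and TEAD4 was the largest of the 4 in every library. TEAD2 shares overlapped, at 26.7% to 29.9% in Rho0 and 24.1% to 27.0% in the parental line.

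The VGLL proteins bind TEAD factors in place of YAP and TAZ. VGLL4, known as an inhibitor of TEAD-driven transcription, rose to 203, 206, 212 and 189 CPM in Rho0, against 71.8, 75.4, 75.9 and 74.8 CPM in the parental line. That is 2.72-fold (log2 fold change 1.44, SE 0.06, edgeR adjusted p = 2.8e-08), with no overlap. VGLL3 rose to 28.7 ± 8.99 CPM in Rho0, against 12.8 ± 0.614 CPM in the parental line (log2 fold change 1.17, SE 0.19). VGLL1 and VGLL2 had no count in any library, so neither could be compared. Relative to the summed TEAD level per kilobase, VGLL4 stood at 0.699 ± 0.0535 in Rho0 and 0.180 ± 0.00925 in the parental line.

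The inhibitors of YAP and TAZ in the set, LATS2 and AMOTL2, were not called. LATS2 (ENSG00000150457, chromosome 13, 20973032 to 21061547), a kinase that phosphorylates YAP and TAZ, had 30.2, 38.8, 36.0 and 36.7 CPM in Rho0, against 35.3, 36.3, 36.8 and 34.9 CPM in the parental line. The parental values lay within the Rho0 range, and the log2 fold change was -0.02 (SE 0.08, 95% interval -0.23 to 0.19, edgeR adjusted p = 0.87).

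AMOTL2 (ENSG00000114019, chromosome 3, 134355874 to 134375479), an angiomotin that binds and retains YAP at junctions, had 56.3, 61.9, 53.1 and 55.7 CPM in Rho0, against 55.3, 53.5, 64.7 and 57.1 CPM in the parental line. These also overlapped, with a log2 fold change of -0.02 (95% interval -0.22 to 0.17, edgeR adjusted p = 0.82). With scaling by library size alone, LATS2 and AMOTL2 were called higher at 0.38 and 0.37, below the median of all genes under that scaling.

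AJUBA (ENSG00000129474, chromosome 14, 22971174 to 22982642) encodes a LIM protein that restrains LATS kinases. It had 53.0, 52.4, 47.9 and 47.7 CPM in Rho0, against 38.9, 41.1, 38.9 and 39.3 CPM in the parental line. All Rho0 values were above all parental values, although the rise was the smallest of those called, at 1.27-fold (log2 fold change 0.34, SE 0.07, edgeR adjusted p = 0.0015).

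Targets that are not themselves regulators of the pathway, 4 in all, went both ways. CCN2 (ENSG00000118523, chromosome 6, 131948176 to 131951373) had 127, 126, 113 and 113 CPM in Rho0, against 18.7, 19.1, 21.9 and 22.6 CPM in the parental line. The lines were far apart compared with the spread within either line (log2 fold change 2.54, SE 0.09, edgeR adjusted p = 6.0e-09), and 1.96% of all genes tested had a higher fold change. CCN2 is also a well-known target of TGF-beta signalling and of serum response factor.

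CCN1 (ENSG00000142871, chromosome 1, 85580761 to 85583962), a matricellular gene of the same family that is usually induced together with CCN2, had 204, 192, 199.6 and 164 CPM in Rho0, against 259, 261, 274 and 239 CPM in the parental line. Every Rho0 library was below every parental library. CCN1 fell by 0.44 on the log2 scale (SE 0.08, edgeR adjusted p = 0.0011). With scaling by library size alone it stood at -0.05 and was not called, the adjusted p being 0.49 there, where the median of all genes was 0.44. Over all alternatives the adjusted p of CCN1 ranged from 4.1e-06 to 0.49.

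The divergence of these genes shows within each library as well. CCN2 counts were 0.622, 0.657, 0.566 and 0.692 of CCN1 counts in the Rho0 libraries and 0.0720, 0.0731, 0.0800 and 0.0944 of them in the parental libraries. Of the CCN family per kilobase, CCN2 made up 35.6 ± 1.93% in Rho0 and 7.04 ± 0.839% in the parental line (SD, n = 4 each), and CCN1 57.5 ± 1.81% in Rho0 and 90.2 ± 0.928% in the parental line. CCN1 was the more abundant of the pair in all 8 libraries.

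ANKRD1 (ENSG00000148677, chromosome 10, 90912096 to 90921276) had 43.7, 48.1, 52.0 and 69.1 CPM in Rho0, against 21.5, 20.6, 21.7 and 26.2 CPM in the parental line. Rho0 replicate 4 and parental replicate 4 were each the highest of their line, and the lines did not overlap. The rise was 2.37-fold (log2 fold change 1.25, SE 0.14, edgeR adjusted p = 3.2e-05).

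AXL (ENSG00000167601, chromosome 19, 41219203 to 41261766), a receptor tyrosine kinase of the TAM family, had 367, 364, 314 and 291 CPM in Rho0, against 199, 207, 254 and 186 CPM in the parental line. The highest parental library, replicate 3, came closest to the Rho0 range without reaching it. AXL rose 1.58-fold (log2 fold change 0.66, SE 0.11, edgeR adjusted p = 5.5e-04).

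**Figure D2:**
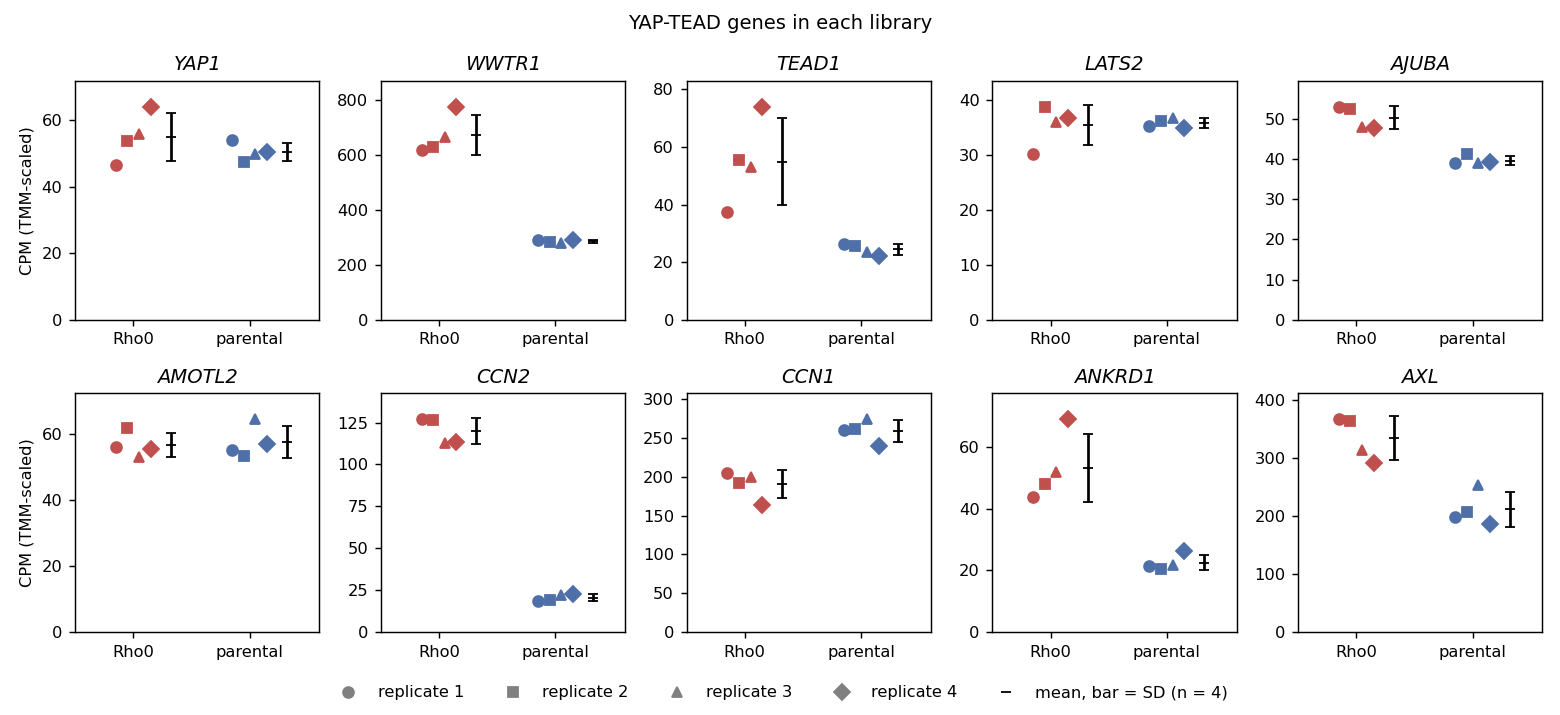
Level of each of the 10 genes in every library, in CPM over the TMM-scaled library size, with Rho0 left of parental; symbols give the replicate and the black mark the mean with its SD (n = 4). The lines separate for WWTR1, TEAD1, AJUBA, CCN2, CCN1, ANKRD1 and AXL and overlap for YAP1, LATS2 and AMOTL2, and CCN1 is the gene of the set that is lower in Rho0.

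Relatives of the targets, and the ligands of the TAM receptors, were measured alongside them. The list of 10 holds relatives of the CCN, ANKRD1 and AXL genes and the ligands GAS6 and PROS1, which are not relatives of AXL. Of these 10, 7 were tested, 5 rose and 0 fell, and their median change was 0.88 (log2). GAS6 and PROS1 were among the 5. Over all genes tested, 29.0% were called higher and 25.4% lower. By edgeR's test 0 were lower at an unadjusted p of 0.05 as well, and 0 by the DESeq2 Wald test. TYRO3 and ANKRD23 had log2 fold changes of -0.17 and -0.06 without a call. CCN5, a matricellular relative, rose to 6.66 ± 1.16 CPM in Rho0, against 0.612 ± 0.261 CPM in the parental line (log2 fold change 3.47, SE 0.26, edgeR adjusted p = 1.3e-06). CCN3 rose 1.84-fold. CCN4 had no count in any library, and CCN6 and ANKRD2 did not pass the filter on low counts.

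Both ligands of the TAM receptors, and the receptor gene MERTK, rose. GAS6, the high-affinity ligand of AXL, had 26.2 ± 3.76 CPM in Rho0 and 12.6 ± 0.959 CPM in the parental line (log2 fold change 1.06, SE 0.11, edgeR adjusted p = 2.1e-05). PROS1, protein S, a ligand of TYRO3 and MERTK and an anticoagulant cofactor, rose 3.59-fold. The receptor gene MERTK rose 1.20-fold, and its lines overlapped. That call was lost in 9 alternatives, among them the DESeq2 Wald test (adjusted p = 0.052) and the length and GC correction (0.55), and it was lost without Rho0 replicate 2 or 3 or parental replicate 2, 3 or 4. AXL was the largest of the 3 receptor mRNAs per kilobase in every library, its share of their sum being 82.5 ± 2.45% in Rho0 and 77.1 ± 2.51% in the parental line (SD, n = 4 each), with overlapping ranges.

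Levels of the 10 genes per kilobase were ordered differently in the lines. In Rho0 the order was WWTR1 (134 ± 14.2 CPM per kilobase, SD, n = 4), CCN1 (83.0 ± 7.92), AXL (70.5 ± 7.97), CCN2 (51.3 ± 3.35), ANKRD1 (26.9 ± 5.603), AMOTL2 (12.6 ± 0.824), AJUBA (11.8 ± 0.671), YAP1 (10.2 ± 1.35), TEAD1 (6.48 ± 1.78) and LATS2 (6.43 ± 0.669). The ranges of CCN1 and AXL overlapped, as did those of each neighbouring pair from AMOTL2 down to LATS2. In the parental line CCN1 came before WWTR1, at 113 ± 6.30 and 56.7 ± 1.03 CPM per kilobase. There CCN2 was in place 8, at 8.79 ± 0.845, with a range that overlapped that of AJUBA before it, and TEAD1 was last, at 2.89 ± 0.227.

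The Rho0 libraries spread more than the parental ones for 7 of the 10 genes and for 10900 of all 15184 genes tested. For CCN2, AMOTL2 and AXL the parental libraries spread more. The median coefficient of variation of the 10 genes was 10.5% in Rho0 and 6.71% in the parental line, and over all genes tested it was 13.96% in Rho0 and 8.07% in the parental line. Rho0 replicate 1 was the lowest Rho0 library for 5 genes (YAP1, WWTR1, TEAD1, LATS2 and ANKRD1), and Rho0 replicate 4 was the highest for 4 of these. The reverse held for CCN1, AJUBA and AXL, for which replicate 1 was highest and replicate 4 lowest. Both groups hold targets. Proliferation markers, named here after their values were seen, did not share an order over the Rho0 libraries. MKI67 was lowest in replicate 1 and highest in replicate 4, at 84.5, 117, 134 and 203 CPM in Rho0 replicates 1 to 4. AURKB and PLK1 ran the other way, at 32.1, 26.7, 25.4 and 22.5 CPM and at 89.8, 87.6, 79.1 and 71.4 CPM. The part of proliferation in the spread was not tested. Correcting each library's counts for the length and GC content of transcripts, an alternative chosen after seeing the data, changed no call among the 10 and moved TEAD1 to 0.86 and ANKRD1 to 1.02.

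**Figure D3:**
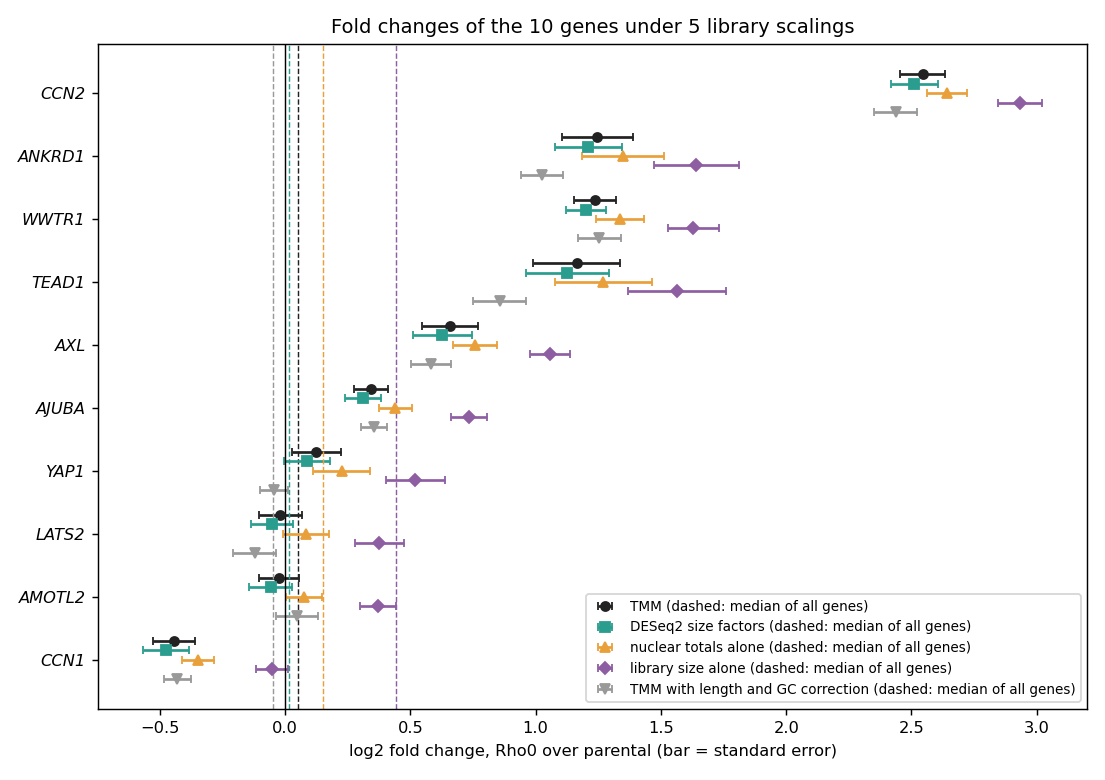
Log2 fold change of each gene, Rho0 over parental, with its standard error under 5 ways of scaling the libraries; dashed lines give the median of all genes under the same scaling. WWTR1, TEAD1, CCN2, ANKRD1, AXL and AJUBA stay above 0 in all 5, CCN1 stays below 0 but reaches -0.05 with library size alone, and YAP1, LATS2 and AMOTL2 change sign between scalings.

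Other genes of the Hippo pathway moved in both directions. Of 26 further regulators, all of them tested, 11 rose, 5 fell and 10 were not called, and the list median was 0.19 (log2). Among all genes tested, 29.0% were called higher, 25.4% lower and 54.4% in either direction, so these counts are not far from the background. FRMD6, a FERM-domain protein that promotes Hippo signalling, rose to 142, 178, 171 and 237 CPM in Rho0, against 76.7, 77.3, 70.3 and 76.4 CPM in the parental line (log2 fold change 1.28, SE 0.13, edgeR adjusted p = 1.8e-05). WWC3, a relative of the scaffold protein KIBRA, rose 1.64-fold. TAOK1, a kinase upstream of STK3 and STK4, rose 1.59-fold but its lines overlapped.

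Among the core kinases, named after their values were seen, STK4 rose 1.35-fold with no overlap, while STK3 and LATS1 had log2 fold changes of 0.38 and 0.14 and were not called (edgeR adjusted p = 0.082 and 0.33). STRN4, a subunit of the phosphatase complex that opposes STK3 and STK4, fell by 0.45 on the log2 scale, and the angiomotin AMOTL1 by 0.33. WWC2 fell by 0.36, a call that held in 12 of 20 alternatives and was lost without Rho0 replicate 3 or without any of the parental replicates. Without Rho0 replicate 3 or parental replicate 1, 2 or 3, the regulators called lower numbered 3 in place of 5. With scaling by library size alone AMOTL1 and WWC2 stood at 0.06 and 0.04 and STRN4 at -0.06, none of them called, and 0 of the 26 regulators were then called lower. WWC1 (KIBRA) and AMOT, singled out after their values were seen, were low in both lines. WWC1 had 1.63 ± 0.760 CPM in Rho0 and 0.0804 ± 0.0249 CPM in the parental line. AMOT had 185 counts in the Rho0 libraries together and 3 in the parental libraries, a ratio of 46.5 with an exact 95% counting interval of 15.7 to 227. The ratio is scaled for library size, and the interval covers counting error only, not the spread between cultures.

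Further target genes were taken from a 22-gene YAP target signature, 16 of them outside the set. Of these 16, all tested, 8 rose, 3 fell and 5 were not called, where 29.0% of all genes were called higher and 25.4% lower. Leaving out each library in turn gave 6 to 8 higher and 3 lower. The list median was 0.35 (log2), against 0.05 for all genes. CRIM1, a transmembrane regulator of growth factors, rose to 411, 443, 461 and 519 CPM in Rho0, against 153, 152, 165.5 and 167 CPM in the parental line (2.88-fold; log2 fold change 1.53, SE 0.08, edgeR adjusted p = 1.3e-07). TGFB2, a TGF-beta ligand, had 9.28 ± 1.66 CPM in Rho0 and 0.0458 ± 0.0378 CPM in the parental line, where it had 4 counts in all. IGFBP3, a binding protein of insulin-like growth factors, had 717 counts in Rho0 and 2 in the parental line, a ratio of 270.1 with an exact 95% counting interval of 74.5 to 2234. This interval too covers counting error only and leaves out the spread between cultures, and the ratio is scaled for library size.

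Other targets fell. ARHGEF17, a guanine nucleotide exchange factor gene, had 133, 152, 138 and 133 CPM in Rho0, against 270.5, 274, 272 and 269 CPM in the parental line (log2 fold change -0.97, SE 0.07, edgeR adjusted p = 7.1e-07). FJX1, a secreted relative of the fly gene four-jointed, fell by 0.81. Both were also called lower with scaling by library size alone, at -0.57 and -0.42. Promoters were on hand for 11 of the 16 genes, and 4 of the 11 held the TEAD core in the 250 bases before the start, against 11.9% of all promoters. These genes were listed as YAP targets, so a higher share may follow from the choice. The 4 were those of FOXF2, PTPN14, NUAK2 and TGFB2, named after their values were seen. FOXF2 and TGFB2 were called higher, NUAK2 lower, and PTPN14, which is also in the list of regulators, was not called.

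**Figure D4:**
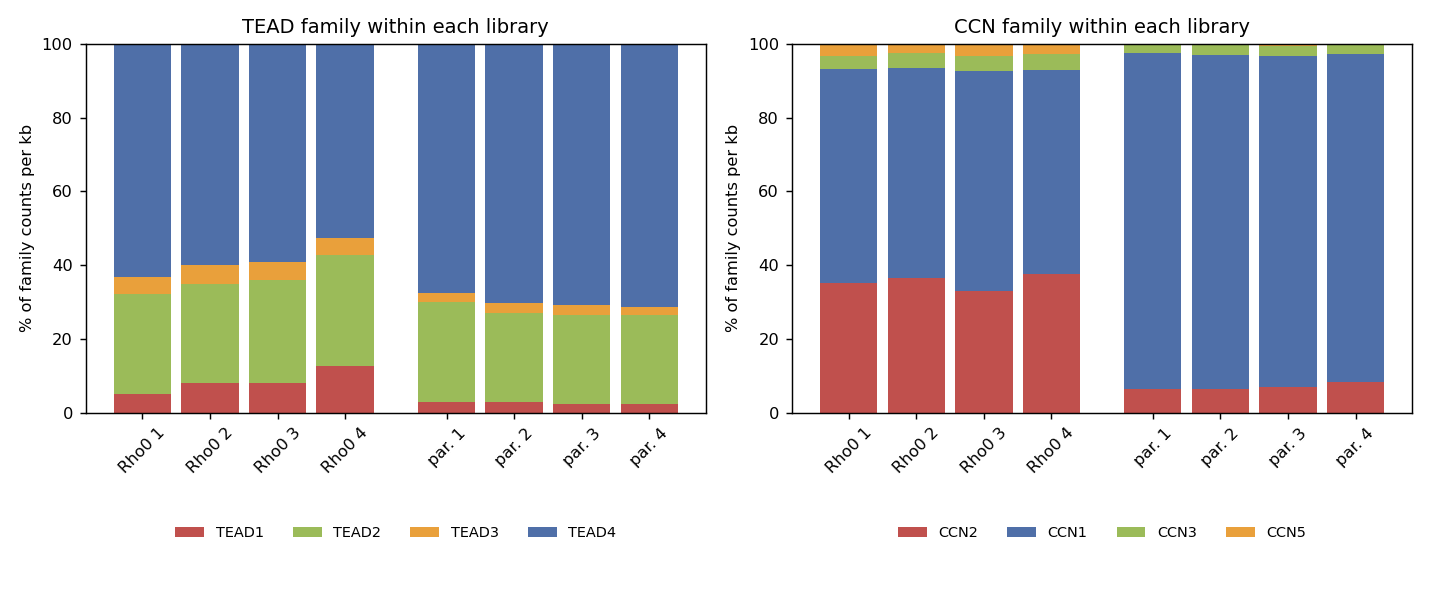
Make-up of the TEAD family (left) and the CCN family (right) in each library, as the percent of the family's counts per kilobase of transcript, with the Rho0 libraries left of the parental ones (par.). TEAD1 reaches 5.07% to 12.7% in Rho0 and 2.30% to 2.90% in the parental line, and CCN2 takes 33.1% to 37.5% in Rho0 and 6.42% to 8.23% in the parental line.

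Serum response factor (SRF) shares several targets with YAP, among them CCN1, CCN2 and ANKRD1. Of 21 genes for SRF, its MRTF coactivators and their cytoskeletal targets, 18 were tested, 6 rose and 5 fell, and the list median was 0.28 (log2). Leaving out each library in turn gave 6 to 8 higher and 5 lower. The shares among all genes tested were 29.0% higher and 25.4% lower. Smooth muscle actin ACTA2 rose to 24.8 ± 3.20 CPM in Rho0, against 7.00 ± 0.659 CPM in the parental line, caldesmon CALD1 rose 3.29-fold and tropomyosin TPM1 2.32-fold. ACTB, TAGLN2 and ZYX fell by 0.65, 0.51 and 0.50 on the log2 scale, none of them called with scaling by library size alone. SRF itself, named after its value was seen, fell by 0.44 with no overlap (SE 0.08, edgeR adjusted p = 7.8e-04). With library size alone 0 genes of the list were called lower. ACTB and ACTG1 are near-identical in coding sequence, so the division of reads between them is uncertain.

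Markers of cycling cells also differed between the lines. Of 12 such markers, 11 were lower in Rho0 and 0 higher (by edgeR, also 0 at an unadjusted p of 0.05 and 0 by the DESeq2 Wald test), with a list median of -1.04 (log2). Their summed level was 653 to 821 CPM in Rho0 and 1302 to 1393 CPM in the parental line. MKI67 had 135 ± 49.98 CPM in Rho0 and 258 ± 19.5 CPM in the parental line (SD, n = 4 each). With scaling by library size alone 7 of the 12 were called lower. In the main test 25.4% of all genes were called lower and 29.0% higher. Epithelial markers were lower in sum, at 1311 to 2099 CPM in Rho0 and 2623 to 2896 CPM in the parental line, with 2 of 8 tested higher and 4 lower. Nearly all of the sum came from KRT8 and KRT18, which were lower, and KRT7, which was not called. CLDN4 and CLDN7 were also lower, while EPCAM and MUC1 were 2.20- and 1.45-fold higher and CDH1 was not called. Among the 12 epithelial markers, ESRP1 held 1 count in Rho0 and 3 in the parental line. Mesenchymal markers moved in both directions, with 3 of 6 tested higher and 2 lower, and summed to 52.4 to 60.0 CPM in Rho0 and 30.7 to 35.2 CPM in the parental line. FAP, at 29.2 ± 6.14 CPM in Rho0 and 4.57 ± 0.536 CPM in the parental line, and ACTA2 were higher. THY1, the most abundant of these markers in the parental line, was lower, at 0.0661 ± 0.0667 CPM in Rho0 (5 counts in all) and 18.9 ± 1.61 CPM in the parental line (SD, n = 4 each). Of the 10 markers, 7 averaged under 1 CPM in both lines, and COL3A1 had no count in Rho0. The part of cycling, epithelial or mesenchymal state in the changes of the 10 genes was not tested.

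**Figure D5:**
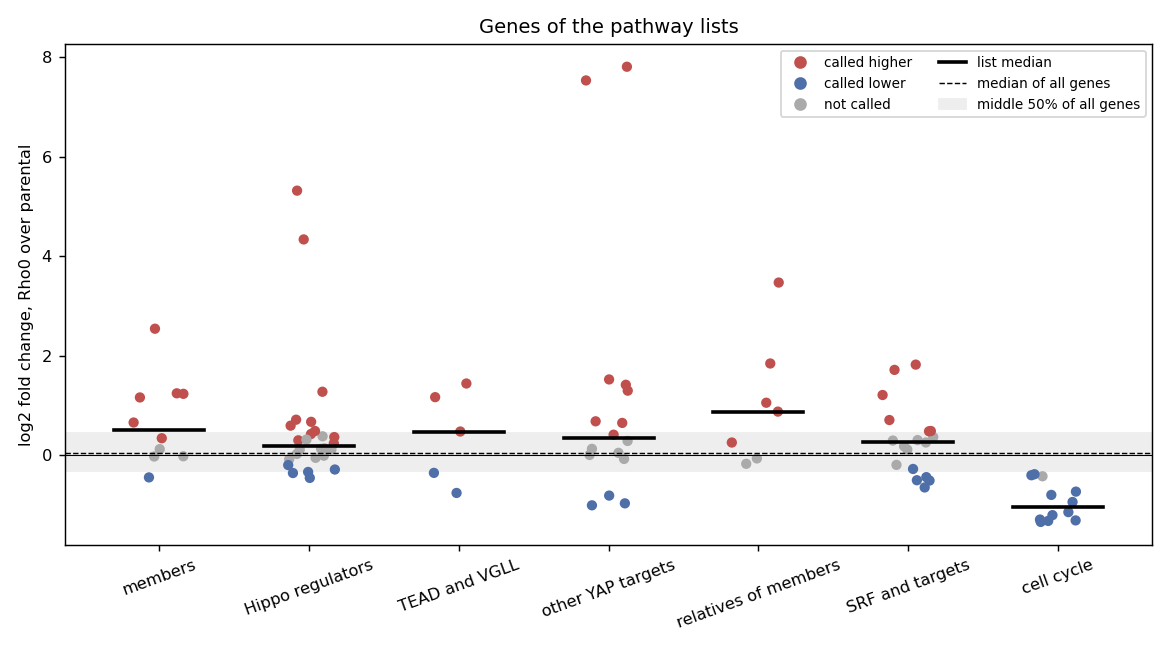
Log2 fold change, Rho0 over parental, of the tested genes of each list, with list members that belong to the set of 10 left out of the other lists; colour gives the call, black bars the list medians and grey the middle 50% of all genes. Medians are 0.50 for the set, 0.19 for Hippo regulators, 0.48 for TEAD and VGLL genes and 0.35 for other YAP targets. They are 0.88 for relatives, a list that includes the ligands GAS6 and PROS1, 0.28 for SRF and its targets and -1.04 for cell cycle markers.

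Over the 8 libraries, the genes whose log2 CPM ran closest to CCN2 among 8946 genes with at least 10 CPM were DTX4, an E3 ligase of the Deltex family, MMP2, a matrix gelatinase, and CBS, of transsulfuration, at root mean square distances of 0.08, 0.11 and 0.11 on the log2 scale. The nearest of the other 9 genes of the set was WWTR1, at 0.68. MMP2 averaged 2948 ± 263 CPM in Rho0 and 546 ± 49.6 CPM in the parental line. For CCN1 the closest genes were SPINDOC, the co-chaperone gene STIP1 and the endocytic adaptor gene EPS15L1, each at 0.03, and the nearest of the set was AMOTL2, at 0.25. With 2 lines, such distances depend largely on the size of the difference between the lines.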

How the data were processed

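Strand-specific poly-A libraries of 4 Rho0 and 4 parental cultures were sequenced, per the labels' protocols. The authors deposited estimated counts per Ensembl gene and a table of log2 expression values for 12885 genes. Kallisto, edgeR, limma and GRCh38 are named in the submitters' processing notes, without versions or settings. Deposited log2 values equalled log2 of a scaled count plus 1, within a relative tolerance of 0.001, for 97.8% of 11402 genes compared. Kallisto divides reads that match several transcripts, so the split between close relatives is an estimate. All columns belonged to a sample.

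Estimated counts were rounded and tested with edgeR 4.0.16 (R 4.3.3): filterByExpr, TMM scaling and the quasi-likelihood test, Rho0 against parental, with Benjamini-Hochberg adjustment over 15184 genes. Intervals used 6 residual degrees of freedom. CPM are counts per 1e6 of the TMM-scaled total, and levels per kilobase divide by the longest coding transcript of GENCODE 29. No replicate pair agreed within sampling noise (chi-square divided by its degrees of freedom at least 4.21). The code was tested on simulated data. The labels name no pairing of same-numbered libraries, and no block was used in the main test.

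The 10 genes and all lists were chosen with earlier results of these data known. Named beside the 10 were up to 3 called genes per direction in each of 5 lists with the largest change and at least 5 CPM in the higher line, the TEAD, VGLL, CCN, ANKRD and TAM relatives and TAM ligands, and the 3 genes with at least 10 CPM nearest to CCN1 and to CCN2. In all, 20 alternatives were run, with DESeq2 1.42.0 and limma 3.58.1 among the tools. Of these, 2 were chosen after seeing the data, namely scaling by nuclear totals alone and a correction for the length and GC content of transcripts.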

Additional observations from a re-analysis of the deposited data

Results flagged for a closer look

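In 7 of 114 groups of 4 libraries, 1 library lay far from the other 3 relative to the range of the group, a pattern that chance gives in about 1 in 20 groups. The share of mitochondrial protein genes in Rho0 was 0.149% in replicate 2, against 0.00757% in the next library. IGFBP3 in Rho0 was lowest in replicate 1, at 4.83 CPM, the next being 6.63 CPM. Parental replicate 3 held 4 of the 7: STRN4 was highest there, at 171 CPM against 153 CPM in the next, FRMD6 lowest at 70.3 CPM against 76.4 CPM, ANKRD23 lowest at 1.29 CPM against 1.79 CPM, and the TYRO3 share of TAM receptor mRNA lowest at 4.24% against 4.799%. The TEAD2 share of TEAD mRNA was highest in parental replicate 1, at 27.0% against 24.3% in the next. None of the 10 genes of the set was among them by its own level.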

How the results depend on the processing

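Of 200 values for the 10 genes under 20 alternatives, 188 kept their direction and side of the threshold. Those that did not concern 4 genes. With library size alone, CCN1 was not called at -0.05 and YAP1 was called at 0.52. AMOTL2 turned positive with a 50-count filter (0.00244), library size alone (0.37, called higher), nuclear totals (0.076), the length and GC correction (0.047) and without parental replicate 3, the range over left-out libraries being -0.085 to 0.032. LATS2 did so with the 50-count filter (0.00807), library size (0.38, called higher), nuclear totals (0.082) and without Rho0 replicate 1 (range over left-out libraries -0.083 to 0.026), and YAP1 stood at -0.043 with the length and GC correction. Of 579 values for other named genes, 7 turned: with library size alone AMOTL1 (0.063), ANKRD23 (0.32), TEAD2 (0.0397), TYRO3 (0.22) and WWC2 (0.0393), and ANKRD23 also with nuclear totals (0.032) and without Rho0 replicate 2 (range over left-out libraries -0.21 to 0.10). The cause was not tested.

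Counts moved most with library size alone: 8583 genes were called higher and 1540 lower (84.8% higher, against 53.3%), and of the lists 21 Hippo regulators, 13 other YAP targets and 13 SRF genes were higher, while 0 of the 10 genes, 0 Hippo regulators, 0 SRF genes and 1 TEAD or VGLL gene were lower. Nuclear totals gave 10 SRF genes higher and 3 Hippo regulators lower, with 62.6% of calls higher, and the length and GC correction gave 9 Hippo regulators lower, with 44.0% of calls higher. Leaving out each library in turn gave 3 to 6 Hippo regulators lower (3 without Rho0 replicate 3 or parental replicate 1, 2 or 3), 3774 to 4591 genes higher and 3415 to 4391 lower, and kept 6 higher and 1 lower among the 10. Same-numbered replicates had correlations of deviations of -0.13, 0.04, 0.0018 and 0.16, and pairs with unlike numbers had -0.25 to 0.19. The labels name no pairing, and so few values cannot show whether same-numbered cultures were handled together. With a replicate block 4215 genes were higher and 3802 lower, and 6 and 1 of the 10. Low counts limit IGFBP3, TGFB2, AMOT and WWC1 in the parental line.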
